A study of Mus musculus with 3 samples.

Results

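The genes described here are 27 lysosomal glycosidases, lipid hydrolases and their helper proteins, out of 31053 genes in the deposited matrix. They are a list of named genes, with no threshold on their measured values. They were sorted into substrate groups: 6 for the glycans of glycoproteins, 8 for glycosaminoglycans, 9 for lipids and 4 for proteins. Not every gene in a group encodes an enzyme: Grn, placed in the protein group, encodes a precursor of granulin peptides. Single-cell RNA sequencing had been run on sorted non-parenchymal cells of mouse liver, taken 3 h after injection. The 3 groups received 20a-LNP, 20mix-LNP or PBS, with 1 library each. LNPs are lipid nanoparticles, here loaded with Cre mRNA at 0.3 mg/kg, and the mice of every group, PBS included, carried the Ai14 (LSL-Tomato) reporter, from which Cre recombinase removes a stop so that a red fluorescent protein is made. The sources used here state neither age, sex nor how many mice were pooled. The 3 libraries sit in 1 matrix and are told apart by barcode suffixes 1, 2 and 3. No label ties a suffix to a treatment, so no treatment was compared. Cell classes were compared, each of them present in all 3 libraries.

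Lysosomes break down what a cell takes up or recycles. Soluble lysosomal enzymes are mostly delivered by a mannose 6-phosphate tag added in the Golgi, and the enzymes that degrade sphingolipids need small activator proteins to lift the lipid out of its membrane. Inherited loss of many of these genes causes a lysosomal storage disease. In the liver, Kupffer cells are the resident macrophages of the sinusoids, and the endothelial cells that line the sinusoids are themselves active scavengers of circulating macromolecules.

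Transcription of many lysosomal genes is controlled by the factor TFEB and its relatives, which bind an extended E-box called the CLEAR element, with CACGTG at its core. RefSeq promoter windows (assembly GRCm38.p6, from 250 bases before to 50 bases after the transcript start) were found for 23 of the 27 genes and for 27025 genes in all. The core CACGTG, a palindrome and so the same on both strands, was in the window of 6 of 23 member genes (26.1%), against 8.09% of all genes. The longer palindrome TCACGTGA, which contains the core, was in 1 of 23 (4.35%), against 1.12% of all genes. The 6 windows with a match are shown because they carry the searched core, with the core (for Gla the longer palindrome) in capitals. They are whole for Lgmn and Gla and 60 bases around the match for the other 4. Distances are to the start of the RefSeq transcript, which can lie inside the gene. In the GENCODE annotation the whole Lgmn window lies inside the gene, whose 5′ end is at 102439813. The Naglu match lies just inside its gene start (101070012), and the Sgsh match spans the 5′ end of its gene (119355536).
Lgmn, chr12:102439043-102439342, - strand, match 49 bases before the start: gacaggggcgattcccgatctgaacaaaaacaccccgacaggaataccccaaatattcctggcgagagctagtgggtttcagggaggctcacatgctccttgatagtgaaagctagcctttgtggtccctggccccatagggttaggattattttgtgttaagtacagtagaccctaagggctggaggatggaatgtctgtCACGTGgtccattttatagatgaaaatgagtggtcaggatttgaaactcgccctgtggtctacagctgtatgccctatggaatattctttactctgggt
Gla, chrX:134600956-134601255, - strand, matches 227 and 194 bases before the start: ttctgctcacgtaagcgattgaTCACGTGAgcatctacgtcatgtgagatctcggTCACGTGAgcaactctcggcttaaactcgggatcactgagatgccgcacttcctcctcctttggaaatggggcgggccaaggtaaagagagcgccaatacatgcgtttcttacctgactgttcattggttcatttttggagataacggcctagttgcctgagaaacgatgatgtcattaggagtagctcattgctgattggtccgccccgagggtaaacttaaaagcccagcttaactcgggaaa
Glb1, chr9:114401003-114401062, + strand, match 48 bases before the start: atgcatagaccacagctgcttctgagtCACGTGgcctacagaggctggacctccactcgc
Naglu, chr11:101069994-101070053, + strand, match 73 bases before the start: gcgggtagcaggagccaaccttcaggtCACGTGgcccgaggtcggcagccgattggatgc
Sgsh, chr11:119355507-119355566, - strand, match 29 bases before the start: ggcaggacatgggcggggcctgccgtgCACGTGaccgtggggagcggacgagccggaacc
Arsa, chr15:89477408-89477467, - strand, match 16 bases before the start: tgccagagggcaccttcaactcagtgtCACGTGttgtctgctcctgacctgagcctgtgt
The pooled level of Lgmn and Glb1 was highest in Kupffer-like cells and that of Gla in neutrophil-like cells, each leading in 3 of 3 libraries. Naglu, Sgsh and Arsa had their highest pooled level in sinusoidal endothelial-like cells, which led in 2, 0 and 1 of 3 libraries, so the peak class of Sgsh and Arsa is uncertain. A match is a description of these letters, and whether any factor binds there was not tested.

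The matrix held 4638 barcodes and 24111183 UMIs (unique molecular identifiers, which count captured RNA molecules), with 6144949, 8754827 and 9211407 UMIs in the libraries of suffixes 1, 2 and 3. After filtering, 3207 cells were kept, with a median of 5669 UMIs per cell, and 2331 of them fell into a cell class by their raw marker UMIs. The 8 classes with at least 50 cells were Kupffer-like (198 cells), conventional dendritic 1-like (cDC1-like, 74), plasmacytoid dendritic-like (pDC-like, 369), nonclassical monocyte-like (120), neutrophil-like (63), natural killer or innate lymphoid 1-like (NK/ILC1-like, 381; NK or ILC1 on the plots), T-like (96) and liver sinusoidal endothelial cell-like (LSEC-like, 936; sinusoidal endothelial on the plots). In the gated cells, the 6 Kupffer markers summed to 14600 CPM (UMIs per 1000000 UMIs of the class) in Kupffer-like and 16.6 CPM in LSEC-like cells, and the 9 sinusoidal endothelial markers to 120 and 18136 CPM. Other classes were less sharply apart: cDC1 markers stood at 1210 CPM in cDC1-like and 284 CPM in Kupffer-like cells, conventional dendritic 2 markers at 760 CPM in pDC-like cells, NK or ILC1 markers at 2103 CPM in NK/ILC1-like and 541 CPM in T-like cells, and T markers at 3322 CPM in T-like and 702 CPM in NK/ILC1-like cells. The median depth differed, at 3063 UMIs per cell in Kupffer-like, 11482 in pDC-like, 17468.5 in cDC1-like and 5499 in LSEC-like cells. Between suffixes, 3 barcode sequences were shared. Levels below are pooled CPM with exact Poisson 95% intervals, ratios carry exact conditional intervals, both covering counting error only, and values of the 3 libraries follow the order of suffixes 1, 2 and 3.

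Summed over the 27 genes, the level was highest in Kupffer-like cells, at 11020 CPM (10792 to 11252), and spanned a wide range over the other classes. Next came cDC1-like cells at 8186 CPM, pDC-like cells at 6759 CPM and nonclassical monocyte-like cells at 5047 CPM. LSEC-like cells had 3236 CPM and neutrophil-like cells 2471 CPM. NK/ILC1-like cells at 859 CPM and T-like cells at 749 CPM were lowest. By library the Kupffer-like sum was 10143, 10919 and 11730 CPM, the pDC-like sum 6404, 6729 and 7073 CPM and the LSEC-like sum 3116, 2890 and 3385 CPM, so these 3 classes did not overlap. Each neighbouring pair in the order of the 8 classes kept its order in 3 of 3 libraries, in CPM without further scaling. The TMM factors of edgeR, by which a class's CPM is divided, were 1.15 in LSEC-like and 0.780 in neutrophil-like cells. Divided by them, the LSEC-like sum falls to 2816 CPM and the pooled neutrophil-like sum rises above it. The order of these neighbours therefore depends on the scaling. The Kupffer-like sum was 3.41 times (3.32 to 3.49) the LSEC-like sum and 1.63 times (1.59 to 1.67) the pDC-like sum, and the pDC-like sum was 2.09 times (2.05 to 2.13) the LSEC-like sum.

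A few genes carried much of each sum. Psap, the precursor of the saposins that activate sphingolipid hydrolases, made up 61.3% of the 27-gene UMIs in pDC-like, 30.8% in Kupffer-like and 35.5% in LSEC-like cells. Without Psap the order of pDC-like and nonclassical monocyte-like cells turned round, at 2618 and 2809 CPM. Without Psap, Lgmn and Grn, the pDC-like sum was 1.02 times the LSEC-like sum and the Kupffer-like sum 2.03 times it. UMI counts taken at the 3′ end do not scale with transcript length, so CPM of different genes can be set side by side only as captured molecules.

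The substrate groups were spread differently over the classes. The 4 genes of the protein group held 45.6% of the 27-gene UMIs in Kupffer-like, 18.3% in pDC-like and 29.7% in LSEC-like cells. Grn alone, which is not an enzyme, held 18.6%, 15.8% and 9.86% in the same classes. The 9 lipid genes held 73.9% in pDC-like and 71.8% in nonclassical monocyte-like cells, against 47.1% in LSEC-like cells. The 8 glycosaminoglycan genes held 31.2% in NK/ILC1-like cells and 2.82% in Kupffer-like cells, although their summed level was of the same order in both (268 and 310 CPM). Between Kupffer-like and LSEC-like cells the ratio of the sums was 5.23 for the protein group, 3.07 for the lipid group, 1.92 for the glycan group and 1.37 for the glycosaminoglycan group. Between pDC-like and LSEC-like cells it was 1.29, 3.28, 0.702 and 0.701 in the same order, so the glycan and glycosaminoglycan groups were lower in pDC-like cells in 3 of 3 libraries. Without Lgmn and Grn the protein ratio of pDC-like over LSEC-like cells turned to 0.357.

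**Figure D1:**
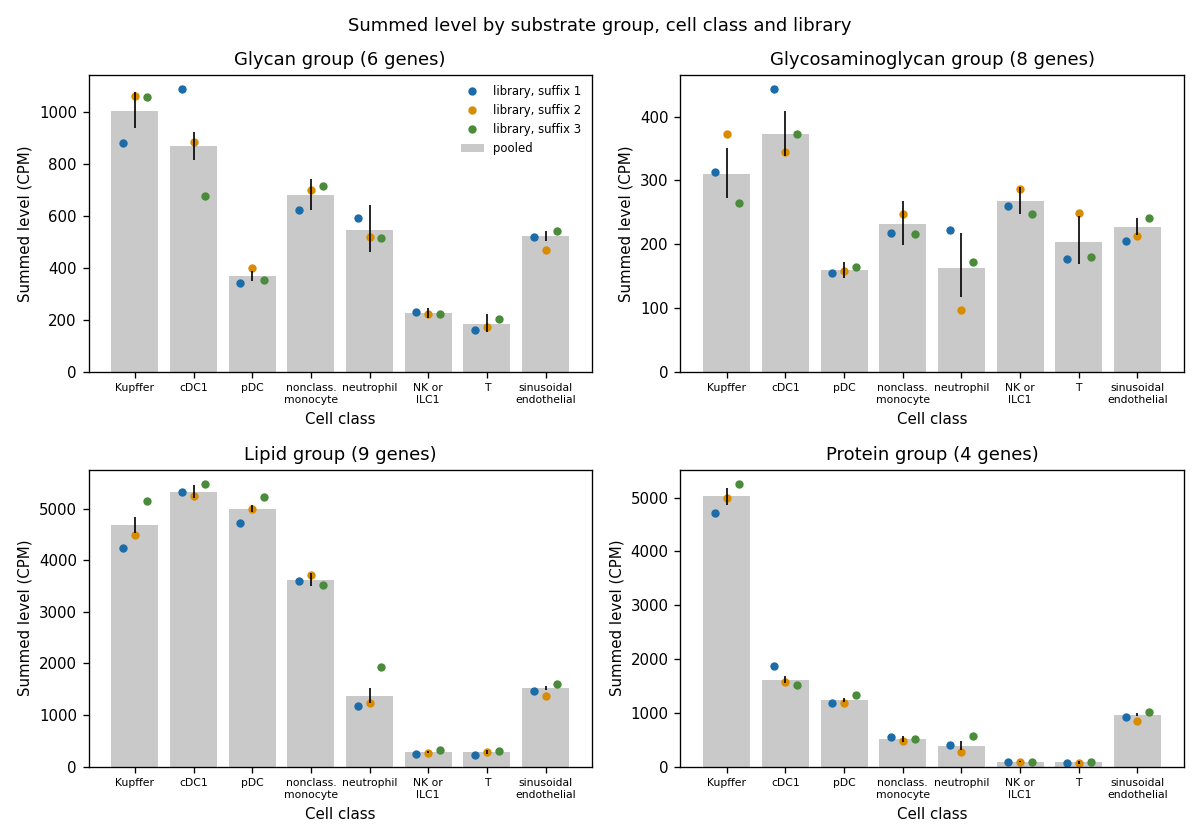
Summed level (CPM, linear axis) of each substrate group in the 8 cell classes, with the pooled value as a bar with its Poisson 95% interval and the 3 libraries as points. The lipid group stood at 4683 CPM in Kupffer-like, 5329 in cDC1-like and 4998 in pDC-like cells and at 1525 CPM in LSEC-like cells, while the protein group stood at 5020 CPM in Kupffer-like cells and at most 1616 CPM in the other classes.

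A gene was called between a pair of classes when its level differed at least 2-fold, reached 20 CPM in the higher class and lay on the same side in 3 of 3 libraries. In Kupffer-like over LSEC-like cells, 14 of the 27 genes were called higher and 1 lower, and 23 reached the minimum level. Over all 7423 genes at that level, 15.0% were called higher and 33.0% lower. The median ratio over all 27 genes was 2.16, against 0.754 over all genes at the minimum level. The 14 higher genes included 6 of 9 lipid, 3 of 4 protein, 3 of 6 glycan and 2 of 8 glycosaminoglycan genes. In edgeR's quasi-likelihood test on the sums per class and library, with the library as block and p-values adjusted over all genes tested (Benjamini-Hochberg), the 14 higher genes and the 1 lower gene all had an adjusted p under 0.05. By that test alone 16 of 23 members tested were higher and 1 lower, against 25.7% and 29.9% of all genes. These p-values measure the spread over 3 libraries that had different treatments.

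**Figure D2:**
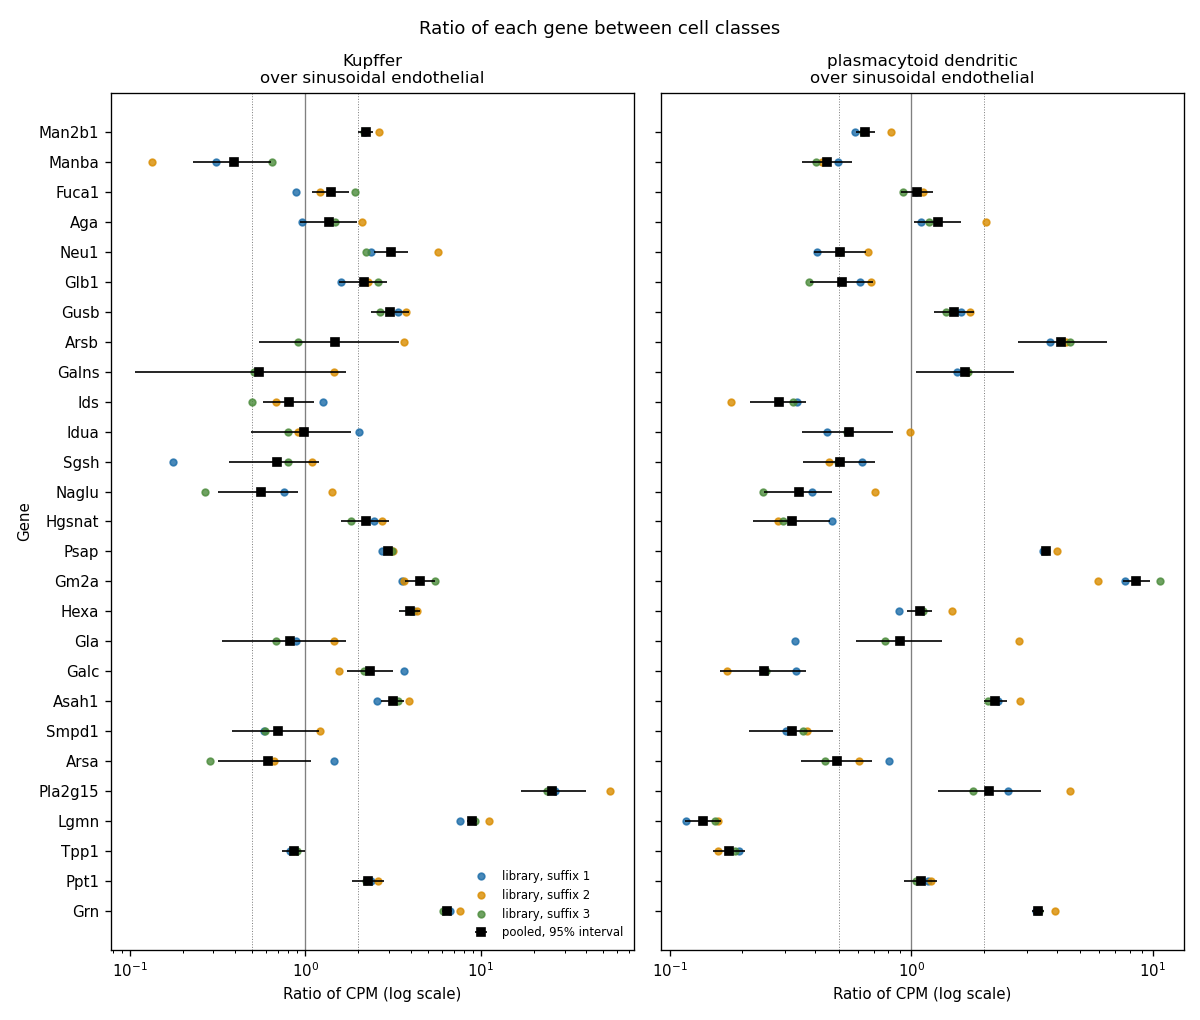
Ratio of CPM (log axis) of each gene in Kupffer-like (left) and pDC-like (right) cells over LSEC-like cells, with the pooled ratio and its 95% interval as squares and the 3 libraries as points. Dotted lines mark 2-fold, and library ratios of 0 are not drawn. Pla2g15 and Lgmn have the highest ratios in the Kupffer-like panel (25.6 and 8.94), and in the pDC-like panel Gm2a has the highest (8.52) and Lgmn and Tpp1 the lowest (0.137 and 0.176).

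In pDC-like over LSEC-like cells, 5 genes were called higher (Arsb, Psap, Gm2a, Asah1 and Grn) and 9 lower (Manba, Ids, Naglu, Hgsnat, Galc, Smpd1, Arsa, Lgmn and Tpp1), with 23 at the minimum level. The background over all genes was 21.1% higher and 33.3% lower, and in cells thinned to 1000 UMIs the Smpd1 ratio turned to 1.09. The median ratio was 0.646 over the 27 genes and 0.802 over all genes. In Kupffer-like over pDC-like cells, 12 genes were called higher and 1 lower (Arsb), with 21 at the minimum level, against 19.9% and 24.5% of all genes. The Arsb call rests on 7 UMIs in Kupffer-like cells, and no gene was called lower in thinned cells or at a mitochondrial maximum of 10%. In the edgeR fit with the library as block, 5 of 5 higher and 8 of 9 lower genes passed in pDC-like over LSEC-like cells, where Arsa did not (adjusted p = 0.0606), and 12 of 12 higher genes passed in Kupffer-like over pDC-like cells, where Arsb did not (adjusted p = 0.0554). Over all genes that fit passed 35.6% as higher and 38.8% as lower in pDC-like over LSEC-like cells, and 25.6% and 26.2% in Kupffer-like over pDC-like cells. In NK/ILC1-like over LSEC-like cells, 2 genes were called higher (Arsb and Galns) and 15 lower, with 24 at the minimum level, against 19.8% and 31.3% of all genes. All 7 lipid genes at the minimum level in that pair were among the 15.

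The class in which each gene stood highest differed from gene to gene. Of the 26 genes that reached 20 CPM in at least 1 class, 9 had their highest pooled level in Kupffer-like cells, where 9.61% of all genes at that level peaked, and 7 in LSEC-like cells, where 30.0% of all genes peaked. Another 4 were highest in cDC1-like (8.11% of all genes), 3 in neutrophil-like (11.6%), 2 in NK/ILC1-like (8.73%) and 1 in pDC-like cells (12.3%). None was highest in T-like or nonclassical monocyte-like cells, where 11.5% and 8.12% of all genes peaked. The remaining gene, Idua, stayed under 20 CPM in all 8 classes. For Man2b1, Aga, Neu1, Galns, Ids, Sgsh, Hgsnat, Smpd1 and Arsa, the interval of the ratio to the second class included 1. The peak class of these genes is therefore uncertain, and the counts rest on pooled levels.

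**Figure D3:**
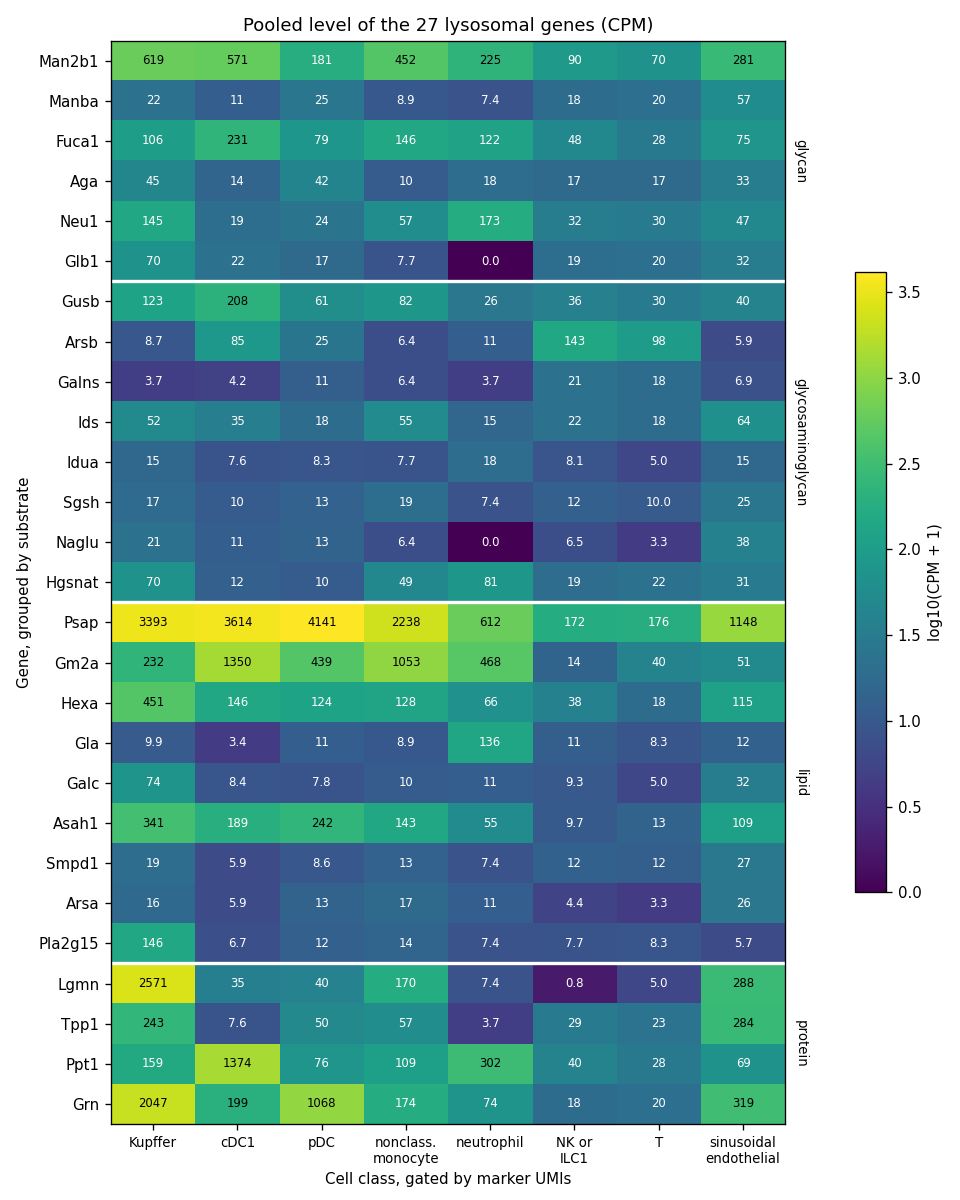
Pooled level of the 27 genes (rows, by substrate group) in the 8 cell classes (columns), printed as CPM and coloured by log10(CPM + 1). Psap is bright in most columns, Lgmn in the Kupffer-like column (2571 CPM) and Ppt1 in the cDC1-like column (1374 CPM), and most of the glycosaminoglycan rows are dark.

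Among the genes of the protein group, Lgmn (legumain, an asparaginyl endopeptidase that also matures cathepsins) separated the classes most. Lgmn had 2272, 2602 and 2768 CPM in the Kupffer-like cells of the 3 libraries, 34.8, 36.9 and 45.9 CPM in pDC-like cells and 298, 233 and 298 CPM in LSEC-like cells. The classes did not overlap, and the ratio was 8.94 (8.36 to 9.56) for Kupffer-like over LSEC-like and 65.0 (55.1 to 77.2) for Kupffer-like over pDC-like cells. In the 381 NK/ILC1-like cells, 2 Lgmn UMIs were counted (0.807 CPM).

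Grn encodes progranulin, a secreted and lysosomal precursor of granulin peptides. Its level in Kupffer-like cells was 2090, 1986 and 2058 CPM, beside 1025, 1026 and 1146 CPM in pDC-like cells and 312, 260 and 339 CPM in LSEC-like cells. The order was the same in 3 of 3 libraries, with ratios of 6.42 (5.99 to 6.87) for Kupffer-like and 3.35 (3.16 to 3.55) for pDC-like over LSEC-like cells. In cDC1-like cells it stood at 199 CPM, 0.186 times the pDC-like level and on the same side in 3 of 3 libraries.

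Ppt1, the thioesterase that removes palmitate from proteins, was highest in cDC1-like cells. It had 1695, 1339 and 1206 CPM there, and the second class, neutrophil-like cells, had 329, 250 and 344 CPM. The ratio was 4.54 (3.64 to 5.74) between these and 18.1 (16.0 to 20.6) between cDC1-like and pDC-like cells. Tpp1, a tripeptidyl peptidase, was low in cDC1-like (7.58 CPM) and neutrophil-like cells (3.69 CPM). Tpp1 had 210, 247 and 265 CPM in Kupffer-like and 257, 289 and 294 CPM in LSEC-like cells, a ratio of 0.858 (0.735 to 0.996) that stayed within 2-fold. Over 13 alternatives that ratio ran from 0.778 to 1.02, with 2 of them on the other side of 1. The edgeR fit with the library as block gave an adjusted p of 0.734 for it. Against pDC-like cells at 49.9 CPM, Kupffer-like cells had 4.87 times (3.97 to 5.98) the Tpp1 level.

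Among the lipid genes, Psap was the most abundant in all 8 classes and, without TMM scaling, highest in pDC-like cells. It had 3911, 4144 and 4321 CPM in pDC-like, 3631, 3572 and 3678 CPM in cDC1-like, 3047, 3252 and 3743 CPM in Kupffer-like and 1115, 1030 and 1194 CPM in LSEC-like cells. Without TMM scaling, the pDC-like values lay above those of the other compared classes, while cDC1-like and Kupffer-like cells overlapped. The pDC-like ratio over cDC1-like cells was 1.15 (1.11 to 1.19). Dividing by the TMM factors, 0.891 in cDC1-like and 1.01 in pDC-like cells, brings these pooled levels to near equality. In the library of suffix 1 it puts cDC1-like above pDC-like cells, so the pDC-like lead depends on the scaling. For Kupffer-like over pDC-like cells, the edgeR fit with the library as block gave an adjusted p of 0.176. The pDC-like level was 3.61 times (3.503 to 3.72) and the Kupffer-like level 2.96 times (2.82 to 3.09) the LSEC-like level. NK/ILC1-like and T-like cells had 172 and 176 CPM.

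Gm2a, the activator that presents GM2 ganglioside to hexosaminidase, stood highest in cDC1-like and nonclassical monocyte-like cells. It had 1252, 1354 and 1415 CPM in cDC1-like, 1044, 1081 and 1009 CPM in nonclassical monocyte-like and 452, 402 and 465 CPM in pDC-like cells, and 59.2, 68.0 and 43.5 CPM in LSEC-like cells. These 4 classes did not overlap, and neutrophil-like cells, at 468 CPM, lay near the pDC-like level. Kupffer-like cells, at 232 CPM, lay between, with a ratio of 4.51 (3.72 to 5.45) over LSEC-like and 0.529 (0.453 to 0.616) over pDC-like cells. In classes too small to compare, Gm2a stood at 1502 CPM in 33 conventional dendritic 2-like and 1403 CPM in 14 classical monocyte-like cells. Hexa, the alpha subunit of the hexosaminidase that Gm2a serves, did not share this order. Hexa had 445, 390 and 496 CPM in Kupffer-like cells, against 178, 121 and 167 CPM in cDC1-like cells, the second class, a ratio of 3.09 (2.57 to 3.73).

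Pla2g15, the lysosomal phospholipase that degrades phosphatidylcholine and phosphatidylethanolamine, had the largest ratio of the 27 genes between Kupffer-like and LSEC-like cells. It had 136, 130 and 166 CPM in Kupffer-like and 5.12, 2.39 and 6.91 CPM in LSEC-like cells, a ratio of 25.6 (17.0 to 39.6) from 118 and 30 UMIs. The other 6 classes lay between 6.74 and 14.0 CPM. Kupffer-like cells were also highest for Asah1, the acid ceramidase, at 341 CPM against 242 CPM in pDC-like and 109 CPM in LSEC-like cells. For Galc, the galactosylceramidase, they had 74.5 CPM, against 7.80 CPM in pDC-like and 31.7 CPM in LSEC-like cells.

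**Figure D4:**
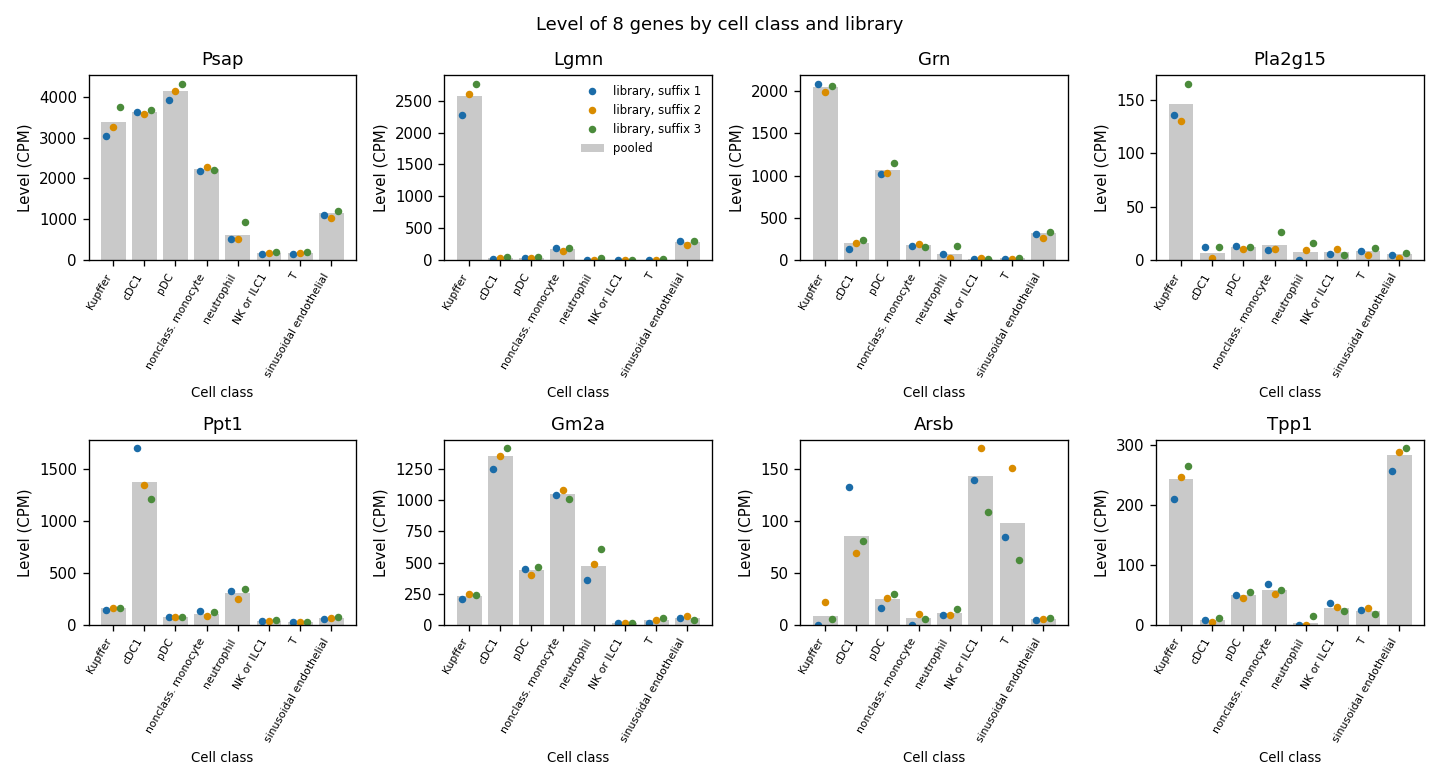
Level (CPM, linear axes of different height) of 8 of the 27 genes in the 8 cell classes, with the pooled value as a bar and the 3 libraries as points. By pooled CPM, Lgmn, Grn and Pla2g15 stand highest in Kupffer-like, Ppt1 and Gm2a in cDC1-like, Arsb in NK/ILC1-like and Tpp1 in LSEC-like cells. The order of LSEC-like and Kupffer-like cells for Tpp1 changed in 2 of 13 alternatives.

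Gla, the alpha-galactosidase of globotriaosylceramide, stood highest in neutrophil-like cells. It had 126, 106 and 203 CPM in the neutrophil-like cells, from 37 UMIs in 63 cells, and at most 12.2 CPM in the other 7 classes. The ratio to the second class, LSEC-like cells, was 11.2 (7.25 to 17.0), higher in 3 of 3 libraries. The remaining 2 lipid genes were low everywhere, with the highest pooled level in LSEC-like cells, which led in 1 of 3 libraries for each. Smpd1, the acid sphingomyelinase, had 18.6 CPM in Kupffer-like, 8.58 CPM in pDC-like and 26.7 CPM in LSEC-like cells. Arsa, the sulfatase of sulfatides, had 16.1, 13.002 and 26.3 CPM in the same 3 classes. Between Kupffer-like and LSEC-like cells the intervals of both ratios include 1 (0.697, 0.380 to 1.19, for Smpd1 and 0.613, 0.318 to 1.08, for Arsa), so no difference was detectable at this depth.

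Among the glycan genes, Man2b1, the lysosomal alpha-mannosidase, was the most abundant in all 8 classes. Man2b1 had 590, 620 and 641 CPM in Kupffer-like, 717, 574 and 462 CPM in cDC1-like and 270, 235 and 298 CPM in LSEC-like cells. Kupffer-like and cDC1-like cells overlapped, with a ratio of 1.08 (0.964 to 1.22), while Kupffer-like cells had 2.21 times (1.99 to 2.45) the LSEC-like level without overlap. Its partner Manba, the beta-mannosidase that removes the innermost mannose, was the 1 gene called lower in Kupffer-like cells. Manba had 16.5, 8.67 and 36.1 CPM in Kupffer-like, from 18 UMIs, and 53.4, 64.5 and 56.0 CPM in LSEC-like cells, a ratio of 0.395 (0.231 to 0.634).

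Neu1, the lysosomal sialidase, stood high in neutrophil-like cells, with 194, 154 and 172 CPM, and in Kupffer-like cells, with 128, 226 and 102 CPM. These 2 classes overlapped (ratio 1.19, 0.832 to 1.69). LSEC-like cells had 54.1, 39.4 and 46.1 CPM of Neu1, and the Kupffer-like ratio over them was 3.08 (2.45 to 3.86). Glb1, the beta-galactosidase that removes terminal galactose, had 45.4, 65.0 and 90.3 CPM in Kupffer-like and 28.5, 28.6 and 34.9 CPM in LSEC-like cells. The classes did not overlap (ratio 2.16, 1.56 to 2.93), and no Glb1 UMI was counted in the 63 neutrophil-like cells, where 3 UMIs would be 11.1 CPM.

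Fuca1, the alpha-fucosidase, was highest in cDC1-like cells at 231 CPM, against 146 CPM in nonclassical monocyte-like cells (ratio 1.59, 1.27 to 1.99). Kupffer-like cells had 106 CPM of Fuca1, against 75.1 CPM in LSEC-like cells, with the libraries on both sides and an adjusted p of 0.0154 in the edgeR fit with the library as block and TMM scaling. Aga, which splits the bond between asparagine and the glycan, had 44.7 CPM in Kupffer-like, 41.9 CPM in pDC-like and 32.6 CPM in LSEC-like cells. The Kupffer-like ratio of Aga was 1.07 (0.722 to 1.54) over pDC-like and 1.37 (0.929 to 1.97) over LSEC-like cells, with an adjusted p of 0.524 and 0.0452 in the edgeR fit.

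Among the glycosaminoglycan genes, Arsb, the sulfatase of dermatan and chondroitin sulfate, stood highest in NK/ILC1-like cells. It had 139, 170 and 108 CPM in NK/ILC1-like cells, 84.4, 151 and 62.6 CPM in T-like cells and 4.39, 5.97 and 6.58 CPM in LSEC-like cells. The NK/ILC1-like level was 24.2 times the LSEC-like level, from 355 and 31 UMIs, and the libraries of these classes did not overlap, while those of NK/ILC1-like and T-like cells did. Arsb took 16.7% of the 27-gene UMIs in NK/ILC1-like cells and 0.183% in LSEC-like cells. Dendritic cells differed among themselves: cDC1-like cells had 133, 68.9 and 80.4 CPM and pDC-like cells 16.5, 26.0 and 29.9 CPM, a ratio of 3.44 (2.58 to 4.61). The cDC1-like libraries overlapped those of T-like cells. Kupffer-like cells had 8.69 CPM from 7 UMIs. In B-like cells, too few to compare, all glycosaminoglycan genes together came to 92.3 CPM from 19 UMIs.

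Galns, the sulfatase of keratan sulfate, was the other gene highest in NK/ILC1-like cells, at a low level. It had 18.1, 16.8 and 30.2 CPM there and 9.51, 5.97 and 5.92 CPM in LSEC-like cells, a ratio of 3.11 with no overlap. T-like cells, second at 18.3 CPM, were not separated from NK/ILC1-like cells (ratio 1.17, 0.604 to 2.49), which led in 2 of 3 libraries. Gusb, the beta-glucuronidase, was highest in cDC1-like cells, with 232, 200 and 206 CPM, and Kupffer-like cells came next with 124, 134 and 114 CPM (ratio 1.69, 1.34 to 2.16). Gusb was 3.05 times (2.38 to 3.90) as high in Kupffer-like as in LSEC-like cells, which had 40.2 CPM.

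The 5 genes of heparan sulfate breakdown were low, and 3 of them, Naglu, Ids and Sgsh, had their highest pooled level in LSEC-like cells. LSEC-like cells led in 2 of 3 libraries for Naglu and Ids and in none for Sgsh, and the ratio to the second class was 1.80 (1.10 to 3.15) for Naglu, 1.17 (0.853 to 1.65) for Ids and 1.31 (0.769 to 2.42) for Sgsh. Hgsnat, the membrane acetyltransferase that prepares heparan sulfate for Naglu, had 69.5 CPM in Kupffer-like, 10.1 CPM in pDC-like and 31.5 CPM in LSEC-like cells. Its level of 81.1 CPM in neutrophil-like cells, from 22 UMIs, was not separated from the Kupffer-like level (ratio 1.17, 0.679 to 1.94). Naglu, which removes N-acetylglucosamine, had 21.1 CPM in Kupffer-like, 13.002 CPM in pDC-like and 38.0 CPM in LSEC-like cells. Ids, the iduronate sulfatase, had 52.1, 18.2 and 64.5 CPM in the same 3 classes. Sgsh, the sulfamidase, had 17.4, 12.7 and 25.2 CPM, and Idua, the alpha-iduronidase, 14.9, 8.32 and 15.1 CPM. In Kupffer-like over LSEC-like cells, the intervals for Ids, Sgsh and Idua include 1, and the Naglu libraries fell on both sides of 1.

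Between cDC1-like and pDC-like cells, 6 genes were called higher (Man2b1, Fuca1, Gusb, Arsb, Gm2a and Ppt1) and 4 lower (Manba, Aga, Tpp1 and Grn), with 17 at the minimum level. Over all genes 9.85% were higher and 21.0% lower. The summed level was 1.21 times (1.18 to 1.24) as high in cDC1-like cells. Between nonclassical monocyte-like and NK/ILC1-like cells, 12 were called higher and 2 lower (Arsb and Galns), with 16 at the minimum level, against 17.1% and 18.3% of all genes. The median ratio in that pair was 1.98 over the 27 genes and 0.903 over all genes. Gm2a had a ratio of 76.8 (54.5 to 112), at 1053 CPM in nonclassical monocyte-like and 13.7 CPM in NK/ILC1-like cells. Lgmn was farther apart, at 170 CPM in nonclassical monocyte-like cells beside the 2 UMIs in NK/ILC1-like cells.

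Within the LSEC-like gate, 235 cells leaned to the pericentral and 298 to the periportal markers, the ends of the sinusoid near the central vein and the portal tract. By library these were 41, 28 and 166 pericentral and 96, 53 and 149 periportal cells, so pooled ratios mix zone with library. The 27 genes summed to 3452 CPM in pericentral and 3155 CPM in periportal cells, a ratio of 1.09 that was 0.845, 1.04 and 1.19 in the 3 libraries and so on both sides of 1. Among the substrate groups only the glycan sum lay on 1 side in 3 of 3 libraries (ratio 1.22; 1.08, 1.18 and 1.28 by library). One gene, Gm2a, was called higher in pericentral cells and 0 lower, with 22 at the minimum level, against 2.65% and 2.13% of all genes. Gm2a had 58.1 CPM in pericentral and 27.9 CPM in periportal cells, a ratio of 2.08 (1.46 to 3.00; 3.72, 1.38 and 1.64 by library). Aga, at 52.0 and 27.4 CPM, came next among the genes at the minimum level and on 1 side in 3 of 3 libraries, with a ratio of 1.90 (1.31 to 2.76).

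The rest of the lysosomal pathway was followed in 39 further genes: 25 other hydrolases and activators, 9 genes of mannose 6-phosphate sorting and sulfatase activation, and 5 transcription factors of lysosomal genes. In Kupffer-like over LSEC-like cells, 15 of the 39 were called higher and 4 lower, with 36 at the minimum level, against 15.0% and 33.0% of all genes. The hydrolases and activators made up 12 of the 15. Acp5, the tartrate-resistant acid phosphatase, had 472 CPM in Kupffer-like and 1.53 CPM in LSEC-like cells. Npc2, which carries cholesterol, had 951 and 151 CPM, Ctsa, the protective protein of Neu1 and Glb1, 637 and 103 CPM, Acp2, an acid phosphatase, 359 and 41.8 CPM, and Plbd1, a phospholipase B-like protein, 322 and 9.15 CPM. Dnase2a, the lysosomal nuclease, Pld3 and Naaa, an amidase of fatty acid ethanolamides, had ratios of 4.65, 5.24 and 8.44. Among the compared classes Naaa was highest in cDC1-like cells, at 1192 CPM.

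The 4 genes called lower were Hyal1, Hyal2, Sort1 and Zkscan3. Hyal2, a hyaluronidase held at the cell surface, had 27.3 CPM in Kupffer-like and 380 CPM in LSEC-like cells, and Hyal1, the lysosomal one, 2.48 and 20.2 CPM. Arsg, a sulfatase of heparan sulfate, had no UMI in Kupffer-like cells, where 3 UMIs would be 3.72 CPM, and 3.81 CPM in LSEC-like cells. Sort1, a sorting receptor, likewise had no UMI there, and 33.8 CPM in LSEC-like cells. In the sorting list, M6pr was the 1 gene called higher, at 223 CPM in Kupffer-like cells against 99.9 CPM in LSEC-like cells, with 1 lower. The summed level of the 9 sorting genes was 658 CPM in Kupffer-like and 713 CPM in LSEC-like cells. Of the transcription factors, Tfe3 and Mitf were called higher and Zkscan3 lower. Mitf had 55.9 CPM in Kupffer-like and 4.20 CPM in LSEC-like cells, while Tfeb had 13.7 CPM in both.

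Markers of other cell types moved with some classes. UMIs of the 8 hepatocyte genes came to 386 CPM in Kupffer-like, 32.2 CPM in pDC-like and 213 CPM in LSEC-like cells, and the 4 haemoglobin genes to 108, 16.4 and 2719 CPM. Leaving out the LSEC-like barcode with over 1% haemoglobin UMIs changed none of the counts of called genes. The median share of mitochondrial UMIs was 9.30% in Kupffer-like, 6.29% in pDC-like and 8.06% in LSEC-like cells. The part of these in the differences between classes was not tested beyond the alternatives given in the closing section.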

How the data were processed

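10x Genomics 3′ libraries came from enzymatically digested, flow-sorted liver, per the labels' protocols. The deposited matrix holds unnormalised UMI counts, made with Cell Ranger (3.1.0 per the file headers). The submitters' processing notes also name mm10, STAR, Seurat and edgeR. Of the deposited files, 2 sample sheets were not used.

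Barcodes with at least 200 genes and at most 20% mitochondrial UMIs were kept (1408 of 4638 removed), and Scrublet, run per library in scanpy 1.11.5, removed 23 doublets. A cell joined a class with UMIs of at least 3 of its markers and 2 more than of any other class, which left 876 cells (27.3%) in none. Which populations were sorted is not stated, and the sort may set how many cells a class has. Conventional dendritic 2-like (33), classical monocyte-like (14) and B-like cells (47) were not compared. UMI counts were summed per class and library and scaled to CPM. Cells are not replicates and each treatment has 1 library, so treatments were not tested. Class sums per library were also tested with edgeR's quasi-likelihood test (filterByExpr, TMM, library as block), a test added after seeing the data and not in the original design. The pairing comes from the classes sharing each library. The interval was tried on simulated Poisson counts. The test was tried on simulated counts with the same spread setting for all genes and no treatment difference between libraries. Neither shows how they behave under variation between mice or treatments. The text names all 27 genes, and of the other pathway genes the 4 with the highest CPM and those beyond 3-fold between Kupffer-like and LSEC-like cells, plus Zkscan3, M6pr, Tfe3 and Tfeb, chosen after their values were seen. One gene that the rule names is not reported here. The members and lists were chosen with earlier results of these data known. Alternatives covered the gate, scaling (TMM, edgeR 4.0.16), denominator, depth, cell filters, doublets, libraries, leading genes, fold and minimum level. Protein sequences and sulfatase motifs were not analysed here.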

Additional observations from a re-analysis of the deposited data

Results flagged for a closer look

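The 1408 barcodes removed by the cell filter, which enter no main comparison, held the 27 genes at 3603 CPM of their non-mitochondrial UMIs (3520 to 3687), where a count of 0 would allow 1.502 CPM. Of these barcodes, 60 passed the Kupffer-like gate and had 12477 CPM, against 12184 CPM in the kept Kupffer-like cells. The 213 that passed the pDC-like gate had 5582 CPM, against 7255 CPM in kept cells, and the 308 that passed the LSEC-like gate had 2485 CPM, against 3512 CPM in kept cells. The 9 that passed the NK/ILC1-like gate had 1719 CPM (1159 to 2453), from 30 UMIs, against 897 CPM in kept cells. Removed barcodes that passed the Kupffer-like, pDC-like or LSEC-like gate did enter the alternative with no mitochondrial maximum, given in the next section.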

How the results depend on the processing

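No paired test of treatments was made, since no label ties a library to a treatment. With the library as replicate block in edgeR and an adjusted p under 0.05 asked for beside 2-fold, 14 genes were higher and 1 lower in Kupffer-like over LSEC-like cells, 5 and 8 in pDC-like over LSEC-like cells, and 12 and 0 in Kupffer-like over pDC-like cells. The ratios of the 27-gene sums in these 3 comparisons kept their direction under every alternative run. Other pairs of classes were not put through the alternatives, apart from the TMM factors named in the Results. For Kupffer-like over LSEC-like cells (3.41) the ratio was 4.04 with TMM scaling, 3.55 with a denominator without mitochondrial, ribosomal, haemoglobin and hepatocyte genes, 3.62 with cells thinned to 1000 UMIs, 3.26 with a mitochondrial maximum of 10%, 3.496 with none, 3.65 without Psap, 2.03 without Psap, Lgmn and Grn, and 3.35 to 3.48 with 1 library left out. For pDC-like over LSEC-like cells (2.09) it was 2.38 with TMM, 2.43 with the reduced denominator, 2.02 at 10%, 2.15 with libraries weighted equally, 1.25 without Psap, 1.02 without the 3 genes and 2.05 to 2.17 with 1 library left out. For Kupffer-like over pDC-like cells (1.63) it was 1.69 with TMM, 1.47 with the reduced denominator, 1.71 thinned, 1.68 with no mitochondrial maximum, 2.91 without Psap, 1.99 without the 3 genes and 1.60 to 1.65 with 1 library left out. TMM moved all genes by 0.24, 0.19 and 0.055 on the log2 scale in these 3 comparisons. Without Psap the Kupffer-like over pDC-like lipid sum turned to 1.505, against 0.937 with it, and likewise to 1.505 without the 3 genes, and without the 3 genes, of which Lgmn and Grn are in it, the pDC-like over LSEC-like protein sum turned to 0.357, against 1.29. The cause of the other moves was not tested.

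Of 81 ratios of single genes, 65 kept their side of 1. Smpd1 in pDC-like over LSEC-like cells was the 1 called gene that turned, to 1.09 in thinned cells, against 0.321. In Kupffer-like over LSEC-like cells, 14 genes were higher at 2-fold and 8 at 3-fold, and the 1 lower gene became 0 at 3-fold. With 1 library left out these counts were 13 to 13 and 1 to 2, with 2 lower without suffix 1. In pDC-like over LSEC-like cells, 5 were higher and 9 to 11 lower with 1 library left out, and 4 lower at a minimum of 50 CPM. In Kupffer-like over pDC-like cells, 11 to 12 were higher and 1 to 2 lower with 1 library left out, with 2 lower without suffix 2 or suffix 3. The 1 lower gene there became 2 with the reduced denominator, at 1.5-fold and at 10 CPM, and 0 with thinned cells, the 10% maximum, 3-fold and 50 CPM. Depth limits the low genes, several of which rest on under 20 UMIs in Kupffer-like cells. Leaving out the barcodes with haemoglobin and the edgeR fit were chosen after seeing the data.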
